A study of Mus musculus with 6 samples.

Results

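Cell cycle and DNA replication genes were followed in RNA sequencing of mouse kidney glomeruli. They were a list of 34 genes named by symbol, all of which were found among the 18822 genes with values. The rule names the genes and uses no measured value, but the list was chosen with earlier results of these data known. By role the list held 6 genes of G1 (the D-type cyclins Ccnd1, Ccnd2 and Ccnd3, their kinases Cdk4 and Cdk6, and Rb1), 4 of the G1/S step (Ccne1, Ccne2, Cdk2 and E2f1) and the 6 MCM helicase subunits Mcm2 to Mcm7. It also held 6 genes of the replication fork and of deoxynucleotide (dNTP) supply (Pcna, Lig1, Rrm1, Rrm2, Tyms and Tk1) and 12 genes of G2 and mitosis, called G2/M genes below. The study compared 3 PR3_KO libraries, from mice lacking proteinase 3 (PR3, product of the gene Prtn3 and a protease that neutrophils store in granules), with 3 WT control libraries. All mice were C57BL/6J and had diabetic kidney disease. Their ages and how diabetes was brought about are not stated in the labels. The labels number the libraries 1 to 3 in each group and do not say whether each came from a separate mouse, so p-values measure the spread between these libraries, which may be technical.

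Cells enter the cycle when D-type cyclins with Cdk4 or Cdk6, and then E-type cyclins with Cdk2, phosphorylate the retinoblastoma protein and free E2F factors, which switch on genes for DNA synthesis. The MCM ring is loaded at replication origins in G1 and unwinds DNA in S phase, while the mitotic genes are held down by the DREAM complex in resting cells and are induced in G2. Mature podocytes divide little, whereas glomerular endothelial and mesangial cells, tubule cells and leukocytes can enter the cycle.

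Levels are in FPKM, a fragment count divided by transcript length and library depth, and no counts were used here. The steps between the lowest values of olfactory receptor genes gave a rough depth of 13300000 to 15200000 fragments per library. At that depth a member rested on very different evidence, from roughly 4 to 16 fragments per library for Bub1 to 5698 to 11785 for Ccnd1. Prtn3 itself was near its floor in all 6 libraries, at 0.14, 0 and 0.07 FPKM in PR3_KO 1 to 3 and 0.46, 0.21 and 0.22 FPKM in WT 1 to 3. The WT libraries were all higher, but a value of this size is at most about 6 fragments, so it is a weak check of the labels. The podocyte marker Podxl stood at 159.82 to 450.32 FPKM across the libraries, and the libraries also held much tubule RNA, since 10 proximal tubule markers summed to 7731 to 64283 FPKM.

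By role, 4 of 6 MCM genes, 4 of 6 fork and dNTP genes and 3 of 6 G1 genes fell in PR3_KO. The 12 G2/M genes together summed to 11.5 to 14.7 FPKM in the PR3_KO libraries and 13.3 FPKM in WT 3, against 26.9 and 27.7 FPKM in the other WT libraries. Of the 34 genes 28 had a mean of at least 1 FPKM and were tested with limma on log2(FPKM + 1), with p-values adjusted over all 12388 genes tested. Of these 28, 14 fell in PR3_KO, 0 rose and 14 did not pass an adjusted p of 0.05. The background was high, since 41.1% of all tested genes fell and 11.7% rose. The tested members had a median log2 fold change of -0.56, and all tested genes had a median of -0.26. Without the filter on low values 16 of 34 members fell and 0 rose, beside 30.4% and 7.54% of the 18231 genes above 0 in any library. All 3 PR3_KO libraries were below all 3 WT libraries for 18 of the 34 members and above them for 0, beside 40.2% and 12.0% of these 18231 genes. This background also holds genes under the filter of 1 FPKM, which 28 of the 34 members passed. Fewer cells of a cycling type and less RNA per cell cannot be told apart in such bulk libraries.

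The scale of the libraries sets much of the background. When each library was rescaled by its median ratio to the mean library (median-of-ratios scaling), the median of all genes moved from -0.26 to 0.03 and 22.3% of genes fell and 25.4% rose. The members then counted 10 that fell and 1 that rose (Tk1), with a median of -0.32. With the rescaling and no filter together, an alternative added after seeing the data, 9 of 34 members fell and 1 rose, beside 16.3% and 16.2% of genes. The fold changes below are as deposited, PR3_KO minus WT on the log2(FPKM + 1) scale, which understates the change of genes under a few FPKM. They are to be read against the median of -0.26, and calls that the rescaling ended are named. Under every setting run, 8 members fell (Ccnd1, Ccnd2, Mcm3, Mcm5, Mcm6, Pcna, Lig1 and Rrm1). The sign of 8 tested members turned positive with the rescaling (Ccnd3, Cdk4, Cdk6, Cdk2, Mcm7, Tyms, Ccnb2 and Plk1), and none of these passed on either scale.

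**Figure D1:**
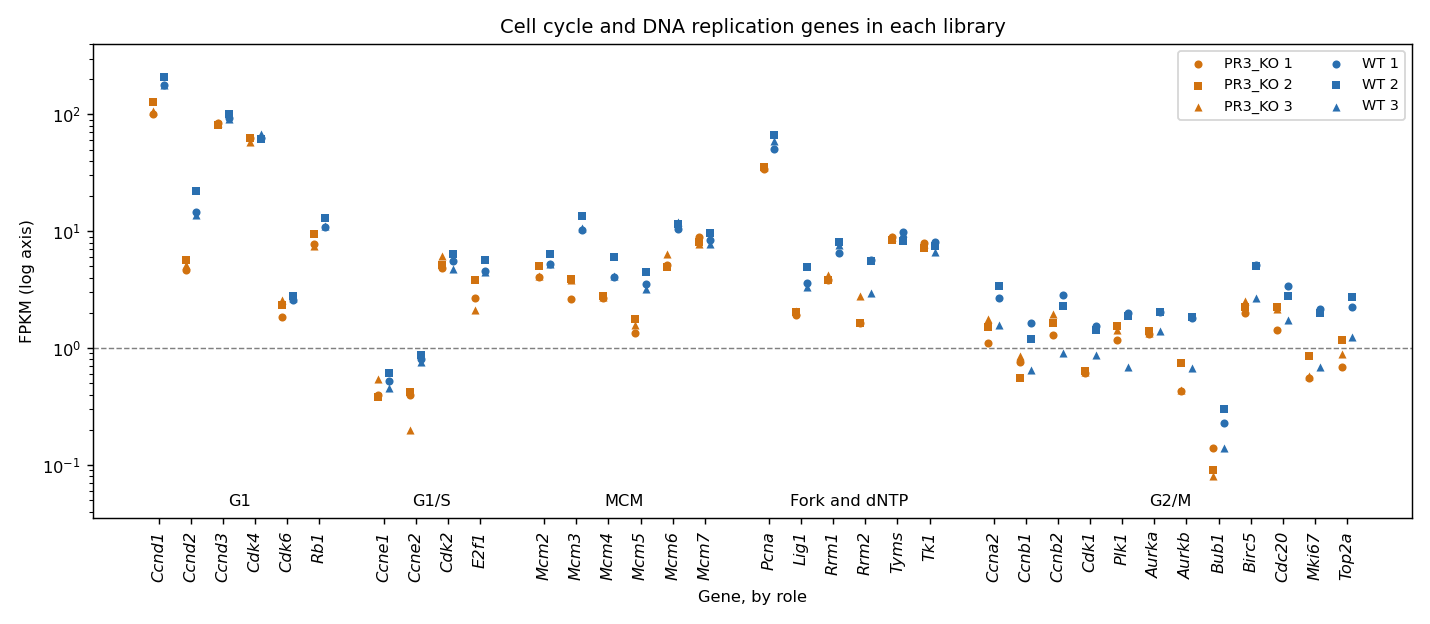
FPKM (log axis) of each of the 34 genes in every library, with PR3_KO in orange, WT in blue, the symbol shape giving the library number and the dashed line marking 1 FPKM. Ccnd1 and Pcna are high and separated by genotype, and the WT 3 triangle lies within the PR3_KO range for 7 of the 12 G2/M genes.

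**Figure D2:**
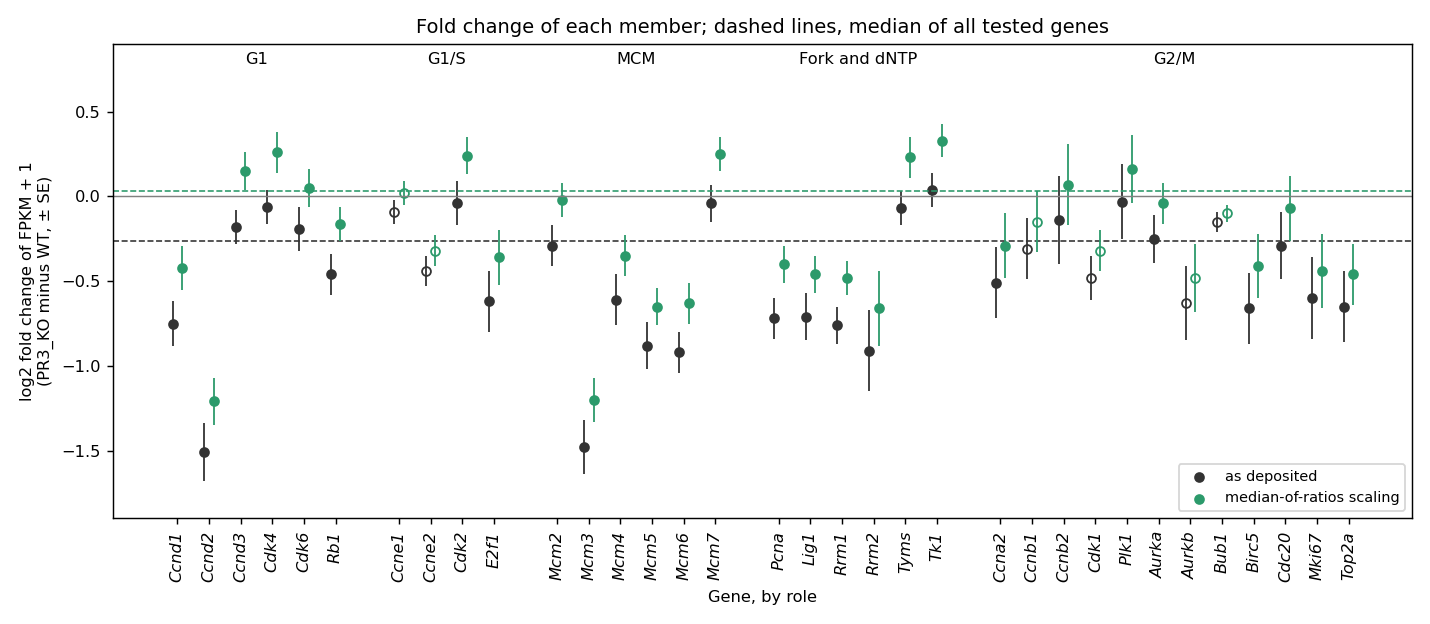
Log2 fold change (PR3_KO minus WT, on FPKM + 1, with the standard error as bars) of each gene, in black for the deposited scale and in green for median-of-ratios scaling. Open symbols are the 6 genes with a mean under 1 FPKM, from the fit without a filter, and dashed lines mark the medians of all tested genes (-0.26 and 0.03). Ccnd2 and Mcm3 are the lowest on both scales.

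Among the G1 genes, 3 of 6 fell in PR3_KO, namely Ccnd1, Ccnd2 and Rb1, beside 41.1% of all tested genes. With median-of-ratios scaling 2 of 6 fell, with a median of -0.06, beside 22.3% of all genes. Ccnd1 (cyclin D1), which couples growth factor signals to the cycle, was the highest member of the list in FPKM. It stood at 100.23, 127.39 and 107.37 FPKM in PR3_KO 1 to 3 and at 178.52, 207.31 and 179.43 FPKM in WT 1 to 3. The groups did not overlap, and the means were 112 ± 14.1 FPKM in PR3_KO and 188 ± 16.4 FPKM in WT (SD, n = 3 each), a log2 fold change of -0.75 (SE 0.13, limma adjusted p = 0.0031). Ccnd2 (cyclin D2), a second D-type cyclin, was at 4.62, 5.70 and 5.16 FPKM in PR3_KO and 14.57, 21.91 and 13.90 FPKM in WT. Every WT library was thus well above every PR3_KO library, and the log2 fold change was the lowest of the members at -1.51 (SE 0.17, limma adjusted p = 0.000841). The third D-type cyclin, Ccnd3, was nearly level, at 81.87 to 84.49 FPKM in PR3_KO and 91.07 to 99.82 FPKM in WT, and did not pass (-0.18, limma adjusted p = 0.155).

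The D-type cyclins therefore differed in how far apart the genotypes stood, which ratios within a library show without any scaling between libraries. The ratio of Ccnd2 to Ccnd3 came to 0.055, 0.0696 and 0.0611 in PR3_KO and to 0.156, 0.219 and 0.153 in WT. The ratio of Ccnd1 to Ccnd3 came to 1.19, 1.56 and 1.27 in PR3_KO and to 1.91, 2.08 and 1.97 in WT. Both ratios were lower in each PR3_KO library than in any WT library. They were chosen after the values were seen and are given with no test.

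The catalytic partners of these cyclins did not pass. Cdk4 was at 58.30 to 63.02 FPKM in PR3_KO and 61.82 to 67.26 FPKM in WT (-0.06, limma adjusted p = 0.606). Cdk6 was at 1.86 to 2.59 FPKM and 2.58 to 2.82 FPKM (-0.19, limma adjusted p = 0.235), and both kinases had overlapping groups. Rb1, the retinoblastoma protein that restrains E2F factors, was at 7.75, 9.42 and 7.52 FPKM in PR3_KO and 10.91, 12.99 and 11.08 FPKM in WT (-0.46, SE 0.12, limma adjusted p = 0.0138). This call was lost with median-of-ratios scaling (-0.16, limma adjusted p = 0.211) and without PR3_KO 3 (limma adjusted p = 0.0533). In the GENCODE M21 annotation 11 members share exonic bases with a protein-coding gene, on the other strand (Ccnd1 shares 1100 bases with LTO1, Cdk4 641 with Tspan31, Rb1 488 with Rcbtb2 and 408 with Lpar6, Mcm7 321 with Ap4m1). Whether strand was used in counting is not stated, so reads of such neighbours cannot be told apart.

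At the G1/S step E2f1 fell and Cdk2 did not pass. E2f1, an activating E2F factor, was at 2.68, 3.82 and 2.12 FPKM in PR3_KO and 4.54, 5.66 and 4.45 FPKM in WT, with no overlap (-0.62, SE 0.18, limma adjusted p = 0.0197). The call was lost with median-of-ratios scaling (-0.36, limma adjusted p = 0.0958), without PR3_KO 1 (limma adjusted p = 0.0601) and without PR3_KO 3 (limma adjusted p = 0.0649). Cdk2, the kinase of E-type cyclins, overlapped between groups at 4.89 to 6.10 and 4.76 to 6.45 FPKM (-0.04, limma adjusted p = 0.82). The E-type cyclins were both under 1 FPKM and outside the main test. Ccne2 (cyclin E2) was at 0.40, 0.42 and 0.20 FPKM in PR3_KO and 0.80, 0.87 and 0.76 FPKM in WT, about 9 to 40 fragments per library. An exact two-sided permutation test of 3 against 3 libraries gave 0.1, the smallest p it allows, and limma without a filter gave -0.44 (adjusted p = 0.00962). Ccne2 shares 609 exonic bases with Ints8 on the other strand, and the part of such reads in its level was not tested. Ccne1 (cyclin E1) overlapped, at 0.38 to 0.54 FPKM in PR3_KO and 0.46 to 0.61 FPKM in WT (exact permutation p = 0.3).

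The MCM helicase subunits parted into 4 that fell and 2 that did not pass, beside 41.1% of all tested genes that fell. Those that fell were Mcm3, Mcm4, Mcm5 and Mcm6, and the median log2 fold change of the 6 genes was -0.75. These genes are textbook targets of E2F factors, so the sequence before the start of a pair that fell is shown. The RefSeq promoter table of GRCm38.p6 holds windows of 300 bases, 250 before to 50 after a gene's start, for 27 of the 34 members. In the stretches printed here, 5′ to 3′ on the strand that the table gives for the gene and without annotated exon bases, capitals mark matches on either strand to the E2F letters TTTCCCGC, TTTCGCGC, TTTGCCGC or TTTGGCGC. The Mcm5 stretch is chr8:75109259-75109467 (plus strand) and the Mcm6 stretch is chr1:128359706-128359955 (minus strand).
Mcm5: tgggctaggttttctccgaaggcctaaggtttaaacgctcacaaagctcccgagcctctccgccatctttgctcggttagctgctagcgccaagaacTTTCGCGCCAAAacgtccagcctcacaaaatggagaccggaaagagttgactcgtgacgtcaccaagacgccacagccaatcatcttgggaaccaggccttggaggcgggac
Mcm6: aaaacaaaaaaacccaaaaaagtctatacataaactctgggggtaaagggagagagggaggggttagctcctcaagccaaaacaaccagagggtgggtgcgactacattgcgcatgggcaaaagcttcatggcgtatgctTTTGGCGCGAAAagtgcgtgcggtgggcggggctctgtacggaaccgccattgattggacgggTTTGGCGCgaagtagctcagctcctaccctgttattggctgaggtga
For both genes the orientation rests on that strand alone, since the end of the window was not found in an annotated transcript. The longer run of capitals in each stretch is a pair of overlapping matches on opposite strands, and Mcm6 has another match. One of these letter strings lay in the windows of 4 of the 5 MCM genes in the table (Mcm3, Mcm5, Mcm6 and Mcm7). By window this was 4 of 6, while 2.26% of all 32851 windows held one. Over the list, 7 of 27 members had one, with 1 of 6 fork and dNTP genes (Lig1), 1 of 3 G1/S genes (Cdk2) and 0 of 3 G1 genes. A match is a description of letters, and it was present both in subunits that fell and in Mcm7, which did not pass.

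Mcm3 had the lowest fold change of the helicase genes. It stood at 2.64, 3.90 and 3.84 FPKM in PR3_KO and 10.17, 13.39 and 10.67 FPKM in WT, so each WT library was far above every PR3_KO library. The means were 3.46 ± 0.711 and 11.4 ± 1.73 FPKM (SD, n = 3 each), a log2 fold change of -1.48 (SE 0.16, limma adjusted p = 0.000794). Mcm6 was at 5.19, 4.94 and 6.41 FPKM in PR3_KO and 10.39, 11.46 and 12.07 FPKM in WT, again apart (-0.92, SE 0.12, limma adjusted p = 0.00107). Mcm5, which forms the gate of the ring with Mcm2, was at 1.34, 1.76 and 1.58 FPKM in PR3_KO and 3.56, 4.46 and 3.19 FPKM in WT (-0.88, SE 0.14, limma adjusted p = 0.00207). Mcm4 was at 2.68 to 2.80 FPKM in PR3_KO and 4.10 to 6.08 FPKM in WT (-0.61, SE 0.15, limma adjusted p = 0.0113). All 4 calls held with median-of-ratios scaling and with each library left out. When the filter was dropped and the libraries were rescaled together, Mcm4 did not pass (limma adjusted p = 0.0629).

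The other helicase subunits were closer between genotypes. Mcm2 was at 4.05, 5.06 and 4.14 FPKM in PR3_KO and 5.28, 6.40 and 5.24 FPKM in WT, narrowly apart, and did not pass (-0.29, SE 0.12, limma adjusted p = 0.0787). Mcm7 was at 8.98, 8.15 and 7.85 FPKM in PR3_KO and 8.47, 9.71 and 7.73 FPKM in WT, so that the groups overlapped fully (-0.04, SE 0.11, limma adjusted p = 0.753). The subunits work in one complex, so ratios within a library are given. The ratio of Mcm3 to Mcm7 came to 0.294, 0.479 and 0.489 in PR3_KO and to 1.2, 1.38 and 1.38 in WT. The ratio of Mcm6 to Mcm7 came to 0.578, 0.606 and 0.817 in PR3_KO and to 1.23, 1.18 and 1.56 in WT. The ratio of Mcm5 to Mcm7 came to 0.149, 0.216 and 0.201 in PR3_KO and to 0.42, 0.459 and 0.413 in WT. All 3 ratios were lower in each PR3_KO library, were chosen after the values were seen and carry no test. Mcm7 shares exonic bases with Ap4m1 and holds the microRNA genes Mir25 and Mir93, and the part of such reads in its level was not tested.

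At the replication fork and in dNTP supply, 4 of 6 genes fell, with a median of -0.72, beside 41.1% of all tested genes. Pcna, the sliding clamp of the replicative polymerases, was at 34.10, 35.23 and 35.43 FPKM in PR3_KO and 50.71, 66.37 and 58.75 FPKM in WT. The PR3_KO libraries were close together and all below WT, with means of 34.9 ± 0.717 and 58.6 ± 7.83 FPKM (SD, n = 3 each) and a log2 fold change of -0.72 (SE 0.12, limma adjusted p = 0.00214). Lig1, the ligase that joins Okazaki fragments, was at 1.91, 2.04 and 2.07 FPKM in PR3_KO and 3.61, 4.91 and 3.35 FPKM in WT (-0.71, SE 0.14, limma adjusted p = 0.005).

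Ribonucleotide reductase makes dNTPs from ribonucleotides, and both of its subunits on the list fell. Rrm1, its large subunit, was at 3.84, 3.82 and 4.21 FPKM in PR3_KO and 6.51, 8.09 and 7.57 FPKM in WT (-0.76, SE 0.11, limma adjusted p = 0.00161). Rrm2, the S phase small subunit, was at 1.65, 1.63 and 2.79 FPKM in PR3_KO and 5.72, 5.53 and 2.97 FPKM in WT (-0.91, SE 0.24, limma adjusted p = 0.0149). For Rrm2 the lowest WT library, WT 3, was only just above PR3_KO 3. The Rrm2 call was lost without PR3_KO 1 (limma adjusted p = 0.0556) and, with no filter and median-of-ratios scaling together, was at an adjusted p of 0.069 in limma.

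The thymidylate genes did not pass as deposited. Tyms, thymidylate synthase, was at 8.36 to 8.96 FPKM in PR3_KO and 8.19 to 9.87 FPKM in WT (-0.07, limma adjusted p = 0.579). Tk1, the thymidine kinase of the salvage route, was at 7.94, 7.25 and 7.71 FPKM in PR3_KO and 8.11, 7.49 and 6.67 FPKM in WT, with a log2 fold change of 0.04 (limma adjusted p = 0.77). After the rescaling Tk1 was the one member called higher in PR3_KO (0.33, limma adjusted p = 0.0345). Set against Tk1 within a library, Pcna was at a ratio of 4.29, 4.86 and 4.6 in PR3_KO and 6.25, 8.86 and 8.81 in WT, a ratio chosen after the values were seen and given with no test.

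In most G2/M genes WT 3 lay below the other WT libraries, near the PR3_KO level, an arrangement also seen for Rrm2. The G2/M stretches chosen for display are those of Top2a, Mki67 and Cdc20, since a promoter element known as the CHR, often paired with CCAAT boxes, marks targets of the DREAM complex. Capitals mark the CHR letters TTTGAA and the letters CCAAT on either strand, in the same windows without annotated exon bases. The stretches are chr11:99024200-99024439 (minus strand) for Top2a, chr7:135716451-135716629 (minus strand) for Mki67 and chr4:118437353-118437593 (minus strand) for Cdc20.
Top2a: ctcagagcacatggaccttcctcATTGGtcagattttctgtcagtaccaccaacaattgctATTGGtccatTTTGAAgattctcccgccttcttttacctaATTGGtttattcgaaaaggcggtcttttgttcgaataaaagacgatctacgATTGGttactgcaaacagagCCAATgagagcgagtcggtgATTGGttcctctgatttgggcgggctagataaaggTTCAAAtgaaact
Mki67: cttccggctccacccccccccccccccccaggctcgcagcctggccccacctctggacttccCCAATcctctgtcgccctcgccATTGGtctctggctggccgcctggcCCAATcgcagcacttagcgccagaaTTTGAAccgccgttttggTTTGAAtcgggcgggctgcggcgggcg
Cdc20: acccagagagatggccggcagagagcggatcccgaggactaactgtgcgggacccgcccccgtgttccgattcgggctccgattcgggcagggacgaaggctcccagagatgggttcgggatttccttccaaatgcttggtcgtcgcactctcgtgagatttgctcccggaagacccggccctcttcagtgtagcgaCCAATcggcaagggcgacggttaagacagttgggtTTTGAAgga
The CHR letters lay in the windows of 7 of the 10 G2/M genes in the table and in 17.9% of all windows, and CCAAT in 9 of 10 and in 37.4%. The E2F letters lay in 1 of 10 (Cdk1). Of the genes shown, Top2a fell, and Mki67 and Cdc20 did not pass.

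Of the 12 G2/M genes 8 were tested, and 2 of these fell, Birc5 and Top2a, beside 41.1% of all tested genes. Birc5 (survivin), a subunit of the chromosomal passenger complex, was at 1.98, 2.25 and 2.54 FPKM in PR3_KO and 5.14, 5.02 and 2.68 FPKM in WT (-0.66, SE 0.21, limma adjusted p = 0.0278). Top2a, the topoisomerase that untangles replicated chromosomes, was at 0.69, 1.18 and 0.89 FPKM in PR3_KO and 2.23, 2.74 and 1.24 FPKM in WT (-0.65, SE 0.21, limma adjusted p = 0.0295). In both genes WT 3 lay just above the highest PR3_KO library and far below WT 1 and WT 2. Neither call held with median-of-ratios scaling (Birc5 -0.41, limma adjusted p = 0.101, and Top2a -0.46, limma adjusted p = 0.0696). Birc5 passed in 2 of the 6 fits that left out 1 library (without PR3_KO 3 and without WT 3) and Top2a in 2 of 6 (without PR3_KO 2 and without WT 3). The adjusted p of the other fits was 0.0619 to 0.0884 for Birc5 and 0.0599 to 0.0962 for Top2a in limma.

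Mki67, which encodes the proliferation antigen Ki-67, showed the same arrangement. It was at 0.56, 0.86 and 0.58 FPKM in PR3_KO and 2.18, 1.99 and 0.69 FPKM in WT, with WT 3 inside the PR3_KO range and the other WT libraries above it (-0.60, SE 0.24, limma adjusted p = 0.067). Ccna2 (cyclin A2), which acts in S phase and G2, was at 1.11, 1.52 and 1.76 FPKM in PR3_KO and 2.71, 3.43 and 1.59 FPKM in WT (-0.51, SE 0.21, limma adjusted p = 0.0712). Without WT 3 both passed, Mki67 at -0.89 (limma adjusted p = 0.00756) and Ccna2 at -0.73 (limma adjusted p = 0.0173). Without WT 3 thus 4 of the 8 tested G2/M genes fell, whereas 0 of 8 fell without PR3_KO 1, without WT 1 or without WT 2. With all libraries kept, 4 of 8 fell when libraries were scaled to equal sums and 3 of 8 with the replicate number as a block. The share of all genes that fell with equal sums is not given here. With median-of-ratios scaling 0 of 8 fell, beside 22.3% of all tested genes. The counts of all genes that fell with 1 library left out are given below as a range.

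The remaining tested G2/M genes did not pass. Ccnb2 (cyclin B2) was at 1.29, 1.63 and 1.95 FPKM in PR3_KO and 2.83, 2.29 and 0.90 FPKM in WT (-0.14, limma adjusted p = 0.651), with WT 3 the lowest of all 6 libraries. Plk1, a kinase of mitotic entry and spindle assembly, was at 1.18, 1.55 and 1.43 FPKM in PR3_KO and 1.98, 1.87 and 0.69 FPKM in WT (-0.03, limma adjusted p = 0.911), and WT 3 was again the lowest. Cdc20, which activates the anaphase-promoting complex, was at 1.44, 2.27 and 2.16 FPKM in PR3_KO and 3.41, 2.82 and 1.75 FPKM in WT (-0.29, limma adjusted p = 0.247). For these genes WT 1 and WT 2 were above all PR3_KO libraries and WT 3 was not. Aurka, a centrosome kinase, was at 1.32 to 1.39 FPKM in PR3_KO and 2.02, 2.02 and 1.39 FPKM in WT (-0.25, limma adjusted p = 0.159).

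The 4 G2/M genes with a mean under 1 FPKM had few fragments behind them. Cdk1, the kinase that drives mitosis, was at 0.61, 0.64 and 0.62 FPKM in PR3_KO and 1.54, 1.42 and 0.88 FPKM in WT, with no overlap (exact permutation p = 0.1, limma without a filter -0.48, adjusted p = 0.0281). The rescaling ended this Cdk1 call (-0.32, limma without a filter, adjusted p = 0.0811). Aurkb, the kinase of the chromosomal passenger complex, was at 0.43, 0.75 and 0.44 FPKM in PR3_KO and 1.80, 1.86 and 0.67 FPKM in WT (exact permutation p = 0.2). With WT 3 inside the PR3_KO range, Aurkb did not pass in limma without a filter (-0.63, adjusted p = 0.0613) and passed with a filter of 0.5 FPKM (adjusted p = 0.0406). Ccnb1 (cyclin B1) was at 0.55 to 0.86 FPKM in PR3_KO and 1.65, 1.19 and 0.65 FPKM in WT (exact permutation p = 0.3), and Bub1, a spindle checkpoint kinase, at 0.08 to 0.14 FPKM and 0.23, 0.30 and 0.14 FPKM (exact permutation p = 0.2).

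WT 3 was at or under the highest PR3_KO library in 9 of 12 G2/M genes, beside 48.4% of all genes above 0, whereas WT 1 was so in 0 of 12 (45.7% of all genes) and WT 2 in 0 of 12 (41.9%). Among the other roles WT 3 was at or under the highest PR3_KO library in 0 of 6 G1 genes, 2 of 4 G1/S genes, 1 of 6 MCM genes and 1 of 6 fork and dNTP genes. The summed FPKM of the 12 G2/M genes in PR3_KO was 11.5, 14.7 and 14.7, against 27.7, 26.9 and 13.3 in WT. The summed FPKM of the 6 MCM genes in PR3_KO was 24.9, 26.6 and 26.6, against 42, 51.5 and 43 in WT. In these sums WT 3 was within the PR3_KO range for the G2/M genes and above it for the MCM genes, and no test compared the roles. This library was singled out after its values were seen. Its rough depth of 15200000 fragments rests on 3 genes at a step of 0.07 FPKM, rounded to 2 decimals. The same rounded step gave all PR3_KO libraries and WT 2 that depth, so it cannot show a modest difference in depth.

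**Figure D3:**
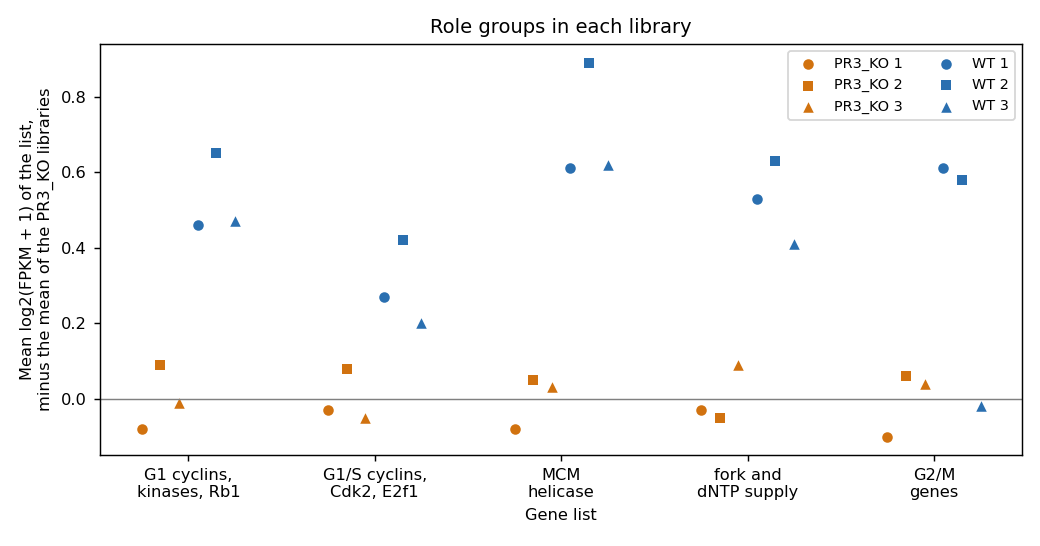
Mean log2(FPKM + 1) of the genes of each role in every library, minus the mean of the 3 PR3_KO libraries (0 on the axis). WT libraries lie above PR3_KO libraries in every role except that WT 3 is at -0.02 for the G2/M genes, where WT 1 and WT 2 are at 0.61 and 0.58.

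A wider set of 141 other cell cycle genes in 8 lists was counted in the same fit, of which 104 had a mean of at least 1 FPKM. Of these, 45 fell and 4 rose, with a median of -0.32, near the -0.26 of all tested genes. The share that fell was near the background of 41.1%, and the share that rose was below the background of 11.7%. With median-of-ratios scaling 20 fell and 15 rose, with a median of -0.08, beside 22.3% and 25.4% of all genes. By role, 12 of 21 tested replication fork genes fell, 8 of 16 of origin licensing and firing, 6 of 12 E2F and MuvB transcription factors and 5 of 11 of chromosome condensation, exit and cytokinesis. With median-of-ratios scaling these lists counted 5 that fell and 2 that rose, 3 and 3, 1 and 2, and 4 and 2, in that order. The counts that fell were 5 of 14 for spindle, kinetochore and checkpoint, 4 of 12 for G1 regulators, 3 of 10 for nucleotide supply and 2 of 8 for G2 and mitotic entry. The rescaled counts of these lists were 1 that fell and 1 that rose, 1 and 1, 3 and 3, and 2 and 1. WT 3 was at or under the highest PR3_KO library in 54 of the 141 genes, WT 1 in 32 and WT 2 in 30, beside 48.4%, 45.7% and 41.9% of all genes above 0. In the list of 29 spindle, kinetochore and checkpoint genes it was so in 15, near the background, while WT 1 was in 3 and WT 2 in 4. For chromosome condensation, exit and cytokinesis the counts were 8 of 17 for WT 3, 4 for WT 1 and 4 for WT 2. For G2 and mitotic entry they were 7 of 12, 2 and 4, and for nucleotide supply 5 of 10, 4 and 4. G1 regulators had 5 of 14, 4 and 3, and E2F and MuvB factors 6 of 16, 4 and 2. Origin licensing and firing had 5 of 20, 5 and 7, and the replication fork 3 of 23, 6 and 2.

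**Figure D4:**
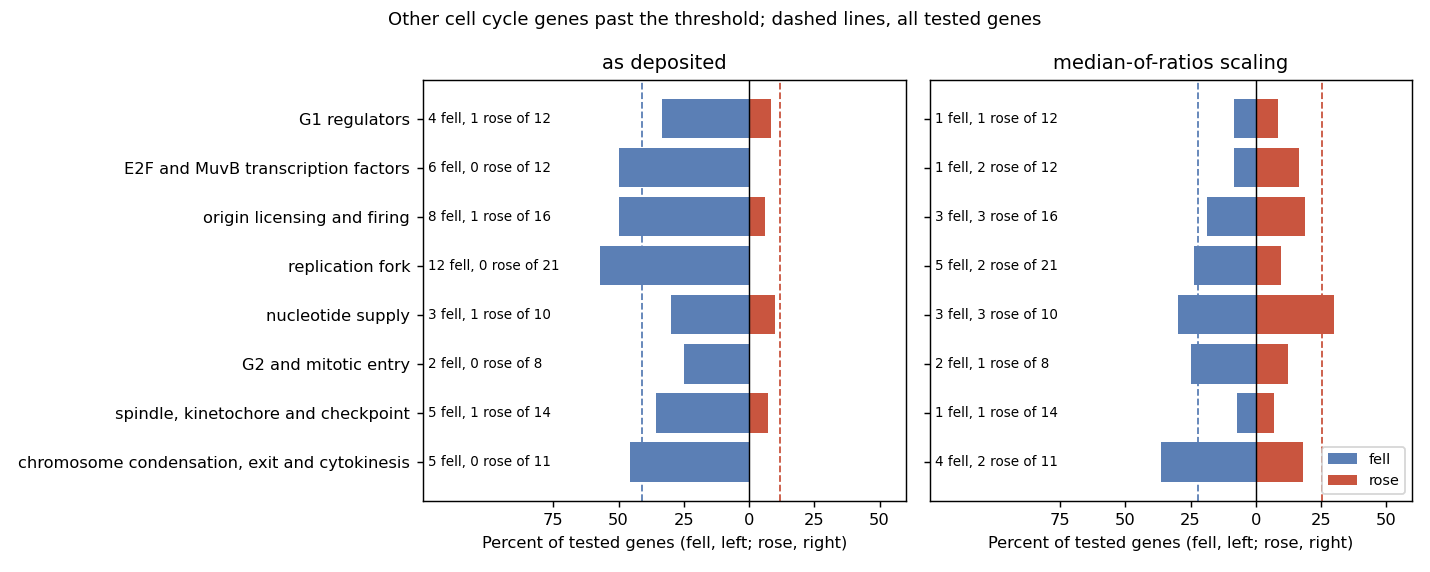
Percent of tested genes that fell (left of 0) or rose (right of 0) in PR3_KO in each of 8 wider cell cycle lists, as deposited and with median-of-ratios scaling, with dashed lines at the share of all tested genes. The replication fork list has the largest share that fell as deposited, 12 of 21.

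Of each wider list the genes with the smallest adjusted p are named. Smc4, the condensin subunit that folds mitotic chromosomes, was at 4.58, 5.02 and 3.86 FPKM in PR3_KO and 10.67, 12.09 and 11.14 FPKM in WT (-1.17, SE 0.11, limma adjusted p = 0.000735), so WT 3 stood with its group. Timeless and Tipin form the fork protection complex. Timeless was at 1.65, 1.94 and 1.88 FPKM in PR3_KO and 4.64, 7.63 and 3.53 FPKM in WT (-1.10, SE 0.22, limma adjusted p = 0.00513). Tipin was at 4.84 to 5.48 FPKM and 8.73 to 11.79 FPKM (-0.94, SE 0.13, limma adjusted p = 0.00135).

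At the fork, Top1, the topoisomerase that relaxes supercoils, fell from 37.0 ± 4.05 FPKM in WT to 19.5 ± 2.22 FPKM in PR3_KO (SD, n = 3 each, -0.89). Pola2, a subunit of the DNA polymerase alpha-primase complex, fell from 10.1 ± 2.21 to 4.86 ± 0.448 FPKM (-0.91). Both passed in limma (adjusted p = 0.00121 for Top1 and 0.00242 for Pola2). In dNTP supply, Dck, the deoxycytidine kinase, had a log2 fold change of -0.92 and Rrm2b, the small ribonucleotide reductase subunit of resting cells, one of -0.65 (adjusted p = 0.00127 and 0.00177 in limma). All 4 also passed with median-of-ratios scaling.

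Among the regulators, E2f6, a repressor E2F, fell from 11.4 ± 1.35 to 5.99 ± 0.624 FPKM (SD, n = 3 each, -0.83, limma adjusted p = 0.00153). Myc, a growth-promoting transcription factor, was at 1.66 to 1.90 FPKM in PR3_KO and 3.01 to 3.92 FPKM in WT (-0.62, limma adjusted p = 0.00567). E2f4, the E2F of the DREAM complex, fell from 29.5 ± 1.60 to 22.0 ± 1.46 FPKM (SD, n = 3 each, -0.40, limma adjusted p = 0.00903). Cdkn1b, the p27 inhibitor of cyclin-dependent kinases, was at 18.53 to 19.14 FPKM in PR3_KO and 23.73 to 29.30 FPKM in WT (-0.44, limma adjusted p = 0.00838). Both of these calls were lost with median-of-ratios scaling (limma adjusted p = 0.416 for E2f4 and 0.262 for Cdkn1b).

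Later in the cycle, Cks1b, a small partner of cyclin-dependent kinases, was at 2.08 to 3.62 FPKM in PR3_KO and 4.95 to 5.27 FPKM in WT (-0.67, limma adjusted p = 0.00934). Pkmyt1, a kinase that inhibits Cdk1, was at 0.88 to 1.03 FPKM and 1.47 to 2.20 FPKM (-0.53, limma adjusted p = 0.0136), and did not pass without both WT 2 and PR3_KO 3 (limma adjusted p = 0.0728). Incenp, the scaffold of the chromosomal passenger complex, was at 1.85 to 2.45 FPKM and 3.37 to 5.35 FPKM (-0.81, limma adjusted p = 0.00529). Cdc27, a subunit of the anaphase-promoting complex, was at 3.86 to 4.42 FPKM and 6.75 to 7.27 FPKM (-0.65, limma adjusted p = 0.00185). None of these 4 had overlapping groups.

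Among the wider-list genes that rose, Spc25, a subunit of the NDC80 kinetochore complex, was at 29.25, 27.27 and 30.33 FPKM in PR3_KO and 22.12, 15.43 and 17.77 FPKM in WT (0.64, SE 0.13, limma adjusted p = 0.00598). This is a high level beside the mitotic members, none of which was above 5.14 FPKM in any library (FPKM is per length of transcript).

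The calls of Mcm10 and Rbl2, which also rose, were less stable. Mcm10, a replication initiation factor outside the MCM ring, was at 1.64, 1.95 and 2.31 FPKM in PR3_KO and 1.25, 1.10 and 1.04 FPKM in WT (0.47, SE 0.13, limma adjusted p = 0.0188). It did not pass without PR3_KO 2, PR3_KO 3 or WT 3, nor with equal library sums (limma adjusted p = 0.0514 to 0.0712). Rbl2 (p130), the pocket protein of the DREAM complex, was at 14.28 to 16.16 FPKM in PR3_KO and 11.57 to 12.63 FPKM in WT (0.28, SE 0.09, limma adjusted p = 0.0335). It passed in 1 of the 6 fits that left out 1 library, that without WT 2, and the other 5 gave an adjusted p of 0.0522 to 0.123 in limma. Rbl2 shares 693 exonic bases with Aktip.

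Markers of other cell types moved with genotype beside these genes. All 12 macrophage markers fell, with a median log2 fold change of -2.89 and summed levels of 152, 99.3 and 139 FPKM in PR3_KO and 667, 1408 and 1324 FPKM in WT. The highest of them, Lyz2, was at 51.84 to 87.54 FPKM in PR3_KO and 292.84 to 585.72 FPKM in WT. Of the WT libraries, WT 3 had the lowest G2/M sum, and WT 1 had the highest G2/M sum and the lowest macrophage sum. WT 3 also had the lowest WT sum for neutrophil (140 FPKM) and distal nephron markers (1122 FPKM), but not for the other marker lists. Whether these orders bear on the G2/M genes was not tested. All 10 glomerular endothelium markers fell (median -1.30), with sums of 818, 1147 and 988 FPKM in PR3_KO and 2239, 2722 and 2393 FPKM in WT. Of 10 proximal tubule markers 8 rose (median 0.80), with sums of 64283, 56118 and 47207 FPKM in PR3_KO and 22786, 7731 and 20320 FPKM in WT, mostly from Kap.

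In the remaining marker lists only part of the genes passed. Of the markers tested, 4 of 8 for podocytes (median -0.61), 4 of 7 for mesangium (median -0.93) and 5 of 8 for the distal nephron (median -0.74) fell and 0 rose, beside 41.1% of all tested genes that fell. With median-of-ratios scaling 1 of 8, 3 of 7 and 2 of 8 of these fell, beside 22.3% of all genes. With 1 library left out at a time the counts that fell were 1 to 6 for podocytes (1 without PR3_KO 1, 2 without PR3_KO 3), 3 to 6 for mesangium and 2 to 5 for the distal nephron (2 without PR3_KO 1 or WT 2, 3 without PR3_KO 3). For parietal epithelium 3 of 6 fell and 2 rose (1 without PR3_KO 1). Of lymphocyte markers 0 of 3 passed in either direction, and 1 fell without WT 1. Of neutrophil markers 1 of 7 rose (Ly6g) and 0 fell, but PR3_KO 3 stood apart, with the neutrophil gene S100a8 at 9.89, 10.72 and 134.33 FPKM in PR3_KO and 65.29, 92.38 and 55.25 FPKM in WT. Without PR3_KO 3, 5 of 7 neutrophil markers fell and 1 rose. Of erythroid markers 1 of 6 fell and 0 rose, and 6 of 6 fell without PR3_KO 2, which had the highest erythroid sum (2796 FPKM, beside 697 to 1740 FPKM in the other libraries). Without PR3_KO 1 or with median-of-ratios scaling 0 of 6 erythroid markers fell. For all genes, the counts that fell with 1 library left out are given below only as a range. Mpo and Elane, defining neutrophil granule genes, were at most 0.32 FPKM, Mpo being listed at 0 in PR3_KO 2, WT 2 and WT 3 and Elane in PR3_KO 1 and PR3_KO 2. The part of any of these cell types in the cell cycle values was not tested.

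**Figure D5:**
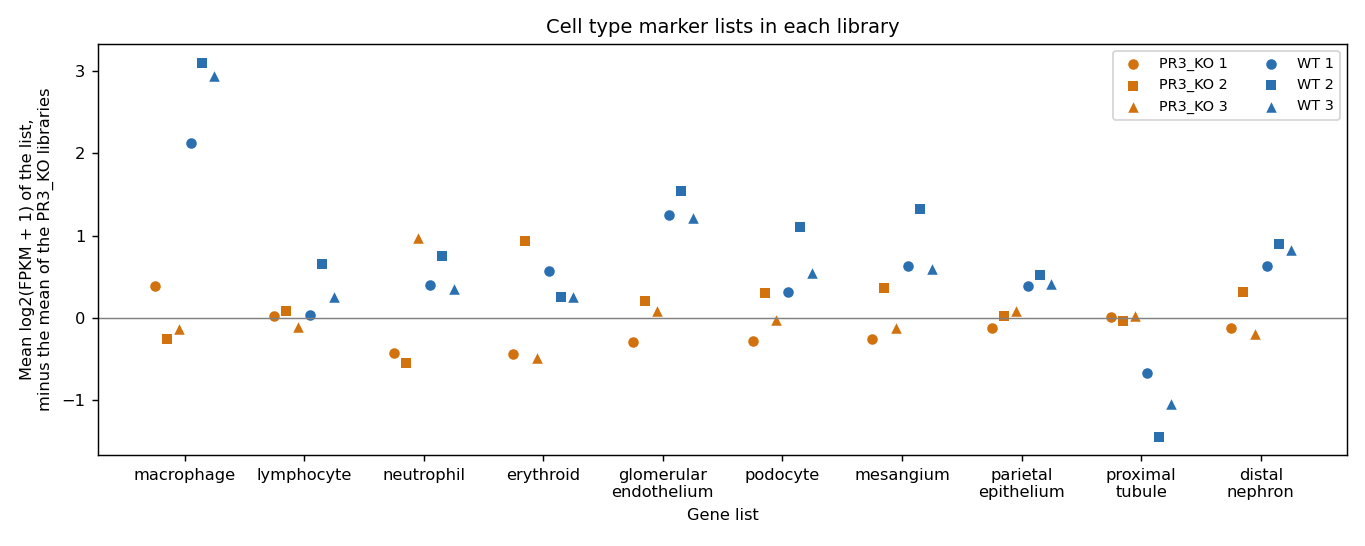
Mean log2(FPKM + 1) of each cell type marker list in every library, minus the mean of the 3 PR3_KO libraries (0 on the axis). Every list except proximal tubule is above 0 in all 3 WT libraries, with the macrophage and endothelium lists the highest, and the proximal tubule list is below 0 in all 3.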

How the data were processed

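Poly(A) RNA was sequenced from 3 PR3_KO and 3 WT glomerular libraries (Trizol, oligo(dT) beads, DNBSEQ, per the labels' protocols). Bowtie2 and the build GRCm38.p6 are named in the submitters' processing notes, and the quantification tool, annotation, strand use and filters are not stated in them or in the labels. The authors deposited FPKM values, per the file headers, rounded to 2 decimals. FPKM depends on the other transcripts of a library, so abundant RNA can lower the rest. Of 22064 gene IDs 3242 were empty, and 18770 of the other 18822 matched a symbol by ID.

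limma 3.58.1 in R 4.3.3 (intensity trend, robust moderation, no covariates) was run on log2(FPKM + 1) for genes averaging 1 FPKM or more, with Benjamini-Hochberg adjustment over all of them and a threshold of 0.05. The code was tested on simulated data. Members under the filter were tested by exact permutation. All members are named, and of each wider list the 2 genes with the smallest adjusted p and any that rose, except 1 that is not reported here. The members and lists were chosen with earlier results of these data known. Alternatives were other filters, pseudocounts and scalings, no trend, the replicate number as a block and leaving out libraries.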

Additional observations from a re-analysis of the deposited data

How the results depend on the processing

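No result changed direction while passing the threshold under any setting run. With median-of-ratios scaling 2767 of all tested genes fell and 3149 rose, 1 cell cycle member rose, the members' median was -0.32, and 20 other cell cycle genes fell and 15 rose. With that scaling and no filter together, chosen after seeing the data, 2971 genes fell and 2957 rose, 9 members fell and 1 rose, the median was -0.31, and 26 other cell cycle genes fell and 13 rose. With equal library sums 18 members fell and 0 rose, with a median of -0.66, and 55 other cell cycle genes fell and 2 rose. By role, 4 of 6 G1 genes, 5 of 6 MCM genes and 4 of 8 tested G2/M genes then fell. Of all tested genes 896 rose with that scaling. The count of all genes that fell with it is not given here, so these counts have no background to be read against. A pseudocount of 0.1 gave a members' median of -0.74. With 1 library left out at a time, 3837 to 4764 genes fell and 917 to 1514 rose, 10 to 16 members fell and 0 rose, the members' median was -0.68 to -0.42, and 33 to 44 other cell cycle genes fell and 2 to 4 rose. The lowest count of risers came without PR3_KO 1 (917) and without PR3_KO 3 (943 genes), each with 2 other cell cycle genes that rose. Without both WT 2 and PR3_KO 3, 10 members fell with a median of -0.41, and 28 other cell cycle genes fell and 2 rose. With the replicate number as a block 15 members fell and 0 rose (Mki67 passed, limma adjusted p = 0.0347), 44 other cell cycle genes fell and 3 rose, and 5143 genes fell and 1550 rose. The deviations of same-numbered libraries from their group means correlated at 0.068, 0.27 and -0.087 across genes. Differently numbered libraries correlated at -0.26 to 0.322. With 3 libraries per group these values cannot show whether a shared number marks a batch. Depth limits the members under 1 FPKM, for which a few fragments decide a value.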
